A study of Mus musculus with 20 samples.

Results

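The core circadian clock genes described here are the 10 rows of the count table named Arntl, Npas2, Per1, Per2, Per3, Cry1, Nr1d1, Nr1d2, Dbp and Ciart, chosen by gene name from 22660 rows. They were followed in plantaris muscle of 20 old mice, each library from 1 animal, with 5 mice in each of 4 groups: sham surgery or MOV, each after vehicle or after D + Q. MOV, mechanical overload, is synergist ablation, in which part of the soleus and gastrocnemius is cut away so that the plantaris carries their load, while a sham operation opens the skin only. D + Q is the senolytic pair dasatinib (5 mg/kg), a kinase inhibitor, and quercetin (50 mg/kg), a plant flavonoid, given by gavage on days 7 and 10 after surgery, and muscle was taken on day 14. The labels give an age of 2 years, and the study describes its old animals as male C57BL/6J, so no young mouse enters any comparison. The description of the series differs from the treatment protocol in 1 point, since it places the second gavage of sham mice on day 14. The hour of day at which each mouse was killed is not given in the sources used here.

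The molecular clock is a feedback loop that runs in almost every cell, skeletal muscle fibers included. A pair of proteins, BMAL1 (the product of Arntl) with CLOCK or its relative NPAS2, binds E-box DNA and switches on the Per and Cry genes, whose proteins then block that pair. The same E-boxes drive Nr1d1 and Nr1d2, which encode the REV-ERB repressors of Arntl and Npas2, and the output genes Dbp and Ciart, so that in most tissues Arntl and Npas2 peak at about the opposite time of day from Dbp and Nr1d1. A single time point per mouse therefore samples a moving set of levels.

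Promoter sequences show how these control elements are laid out in the members. RefSeq promoter windows (GRCm38.p6, 250 bases before and 50 after a start site) were matched by symbol for 9 of the 10 members, in 11 windows, and there was no entry for Per2. Motifs were searched on both strands: the E-box CACGTG, the E'-box CACGTT, the D-box TTANGTAA bound by DBP and its relatives, the ROR element TAGGTCA bound by REV-ERB and ROR receptors, and the cAMP response element TGACGTCA. The 250 bases before the start are printed for the members with an E-box or a D-box on their printed strand, with those motifs in capitals. Ciart held 3 E-boxes, 116, 58 and 44 bases before its start (chr3:95882229-95882478, minus strand). Per3 held 2 D-boxes, 205 and 158 bases before its start (chr4:151044666-151044915, minus strand). Cry1 held 1 E-box 60 bases before its start (chr10:85185055-85185304, minus strand) and, 79 bases before it, an E'-box that reads on the other strand and stays in lower case. Per1 held 1 E-box 166 bases before its start (chr11:69098699-69098948, plus strand). The last line is a 30-base stretch of Arntl with the ROR element 31 bases after its start (chr7:113207529-113207558, plus strand).

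Ciart: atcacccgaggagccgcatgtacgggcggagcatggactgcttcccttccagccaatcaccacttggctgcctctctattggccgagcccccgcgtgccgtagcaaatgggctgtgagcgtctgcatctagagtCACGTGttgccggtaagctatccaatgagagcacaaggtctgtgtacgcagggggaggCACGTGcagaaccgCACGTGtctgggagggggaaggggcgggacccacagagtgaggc
Per3: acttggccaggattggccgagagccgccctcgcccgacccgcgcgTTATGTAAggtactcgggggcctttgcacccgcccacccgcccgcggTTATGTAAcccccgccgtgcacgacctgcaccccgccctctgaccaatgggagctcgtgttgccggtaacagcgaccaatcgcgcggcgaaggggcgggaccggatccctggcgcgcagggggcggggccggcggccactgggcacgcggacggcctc
Cry1: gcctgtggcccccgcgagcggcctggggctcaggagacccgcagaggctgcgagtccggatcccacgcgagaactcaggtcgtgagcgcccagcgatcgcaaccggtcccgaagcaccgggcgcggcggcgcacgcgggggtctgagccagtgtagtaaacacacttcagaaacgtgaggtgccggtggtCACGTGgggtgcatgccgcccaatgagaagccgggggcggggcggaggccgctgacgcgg
Per1: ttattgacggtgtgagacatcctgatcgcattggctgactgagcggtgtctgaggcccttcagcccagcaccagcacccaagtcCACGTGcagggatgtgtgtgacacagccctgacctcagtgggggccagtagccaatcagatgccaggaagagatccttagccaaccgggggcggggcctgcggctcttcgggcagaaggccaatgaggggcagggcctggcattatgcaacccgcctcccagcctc
Arntl: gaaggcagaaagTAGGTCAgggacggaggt

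Among all 32851 windows of this length, 7.15% held an E-box, 4.68% an E'-box, 2.32% a D-box, 2.61% a ROR element and 1.79% a cAMP response element. Of the 9 members with a window, 3 held an E-box and 6 held at least 1 of the motifs, the remaining match being an E'-box 28 bases before the start of Nr1d1. None of the members' windows held the cAMP response element. A match of letters is a description only, and these windows leave out more distant elements.

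All 10 members were measured above the count minimum in every comparison. The lowest estimated counts were those of Npas2, 11 to 35 per mouse in vehicle sham muscle, and of Ciart, 15 to 32 in vehicle MOV muscle, whereas Nr1d1 had at least 1499 in every mouse. Levels between genes were compared per kilobase of transcript, in CPM (reads of a gene scaled to a common library size). In vehicle sham muscle the REV-ERB gene Nr1d1 stood highest, at 66.0 ± 7.31 CPM per kb (SD, n = 5), followed by Dbp at 46.4 ± 13.3 and Nr1d2 at 24.04 ± 1.76. A middle group of members lay closer together than the SD of Per1: Per1 at 5.85 ± 2.31, Arntl at 5.63 ± 1.22, Cry1 at 4.96 ± 0.476 and Per3 at 4.86 ± 1.06 CPM per kb. Ciart (2.63 ± 0.978) and Per2 (1.80 ± 0.395) followed, also within an SD of each other, and Npas2 (0.267 ± 0.135) was lowest. In vehicle MOV muscle Arntl, at 7.89 ± 0.853 CPM per kb, had come close to Dbp (10.9 ± 2.56) and Nr1d2 (11.6 ± 1.56), and Npas2 (1.43 ± 0.381) had passed Ciart (0.515 ± 0.164).

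**Figure D1:**
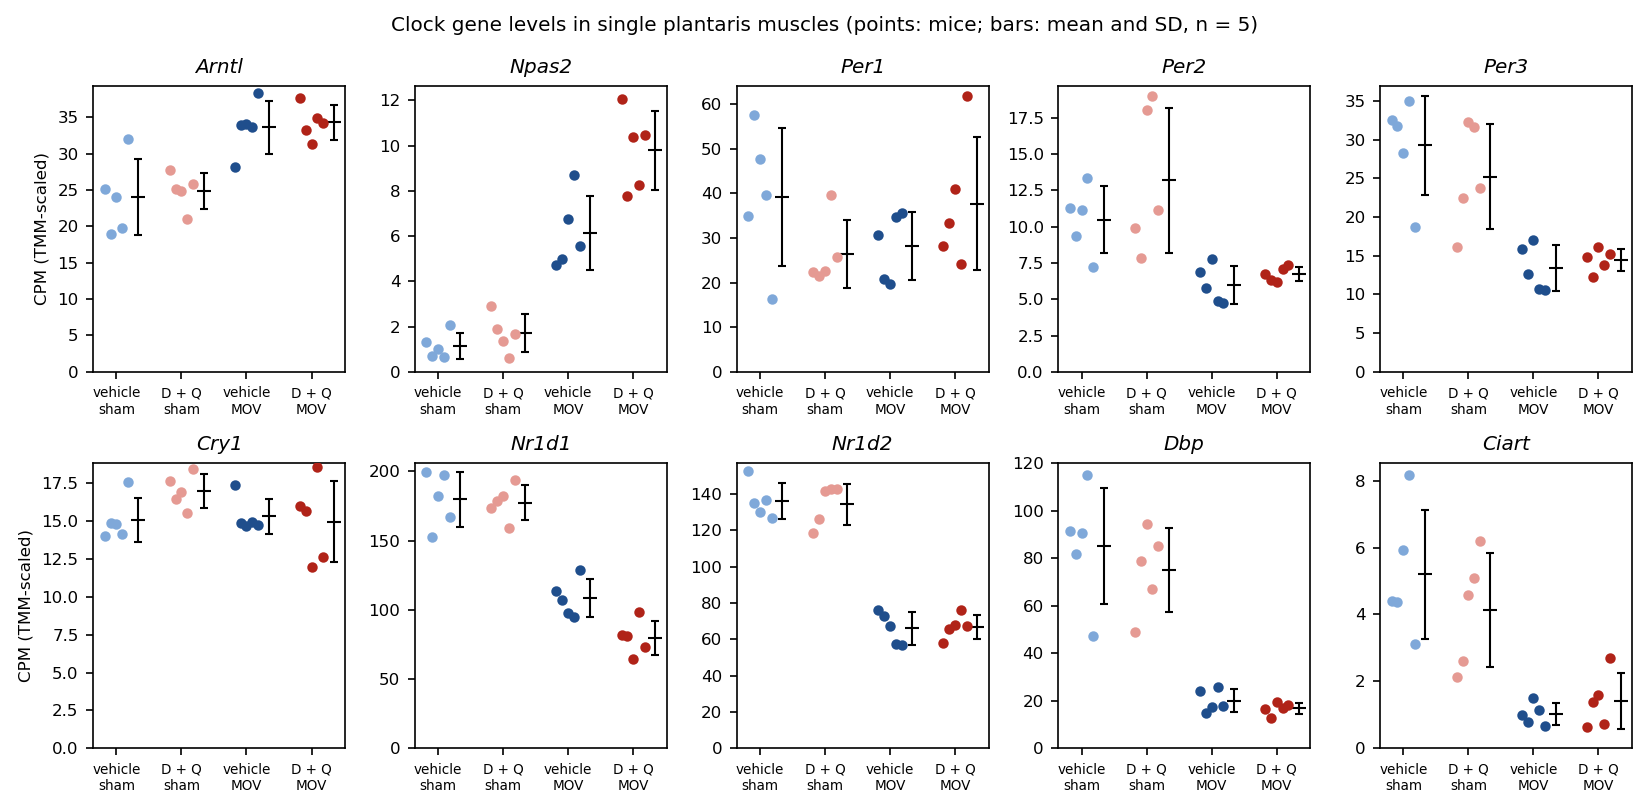
Levels of the 10 clock genes in each mouse, in CPM scaled by TMM factors over the 20 libraries (vertical axes from 0), by group (horizontal axes). Points are mice and bars the mean and SD of 5 mice. Npas2 is higher and Nr1d1, Nr1d2 and Dbp lower in every MOV mouse than in every sham mouse, while Cry1 and Per1 overlap throughout.

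Among the comparisons, members passed the test with overload and not with D + Q. In vehicle mice, MOV muscle had higher Arntl and Npas2 and lower Per2, Per3, Nr1d1, Nr1d2, Dbp and Ciart than sham muscle, and the same genes moved in the same directions in D + Q mice. Npas2 rose 5.34-fold in vehicle mice, and Dbp fell to 0.237 and Ciart to 0.198 of their sham levels. That is 2 members higher, 6 lower and 2 not past an adjusted p of 0.05 in each treatment, by edgeR's quasi-likelihood test with Benjamini-Hochberg adjustment over all genes. The background is high: 60.5% of all 14601 genes tested in vehicle mice passed that test (30.7% higher, 29.8% lower), as did 65.3% of 14913 in D + Q mice (34.4% higher, 30.9% lower). The median log2 fold change of the members was -0.76 in vehicle mice and -0.85 in D + Q mice, against -0.02 and 0.02 over all genes tested. In vehicle mice 6 members did not overlap between MOV and sham (46.4% of all genes), and in D + Q mice 6 members (53.0%). Because the hour of collection of each mouse is not given, its part in the differences between MOV and sham was not tested.

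The activators come first. Arntl (GRCm39 chr7:112806152-112914735, plus strand), listed in GENCODE as Bmal1, encodes the partner that the loop cannot run without. Its level in vehicle sham mice was 25.2, 19.0, 24.1, 19.8 and 32.01 CPM, and in vehicle MOV mice 28.1, 34.01, 34.2, 33.6 and 38.4 CPM. In D + Q sham mice Arntl stood at 27.8, 25.2, 24.9, 21.0 and 25.8 CPM, against 37.7, 33.3, 31.3, 34.9 and 34.3 CPM in D + Q MOV mice. The vehicle groups overlapped only through 1 high sham mouse and 1 low MOV mouse, and the D + Q groups did not overlap. The log2 fold change of Arntl was 0.49 (SE 0.129, adjusted p = 0.00450) in vehicle mice and 0.50 (SE 0.0760, adjusted p = 1.54e-05) in D + Q mice.

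Npas2 (chr1:39232705-39402323, plus strand), the relative of Clock that can take its place beside BMAL1, had the largest rise among the members. Vehicle sham mice held 1.33, 0.690, 1.02, 0.637 and 2.06 CPM of Npas2, and vehicle MOV mice 4.72, 4.97, 6.74, 8.71 and 5.55 CPM. D + Q sham mice held 2.93, 1.89, 1.36, 0.631 and 1.68 CPM, and D + Q MOV mice 12.1, 7.79, 10.4, 8.25 and 10.5 CPM. Every MOV mouse was above every sham mouse. The log2 fold change was 2.42 (SE 0.290, adjusted p = 5.02e-06) in vehicle mice and 2.57 (SE 0.267, adjusted p = 1.23e-06) in D + Q mice.

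The period and cryptochrome genes, which encode the repressors of that pair, did not move as one. Per3 (chr4:151081373-151129140, minus strand) stood at 32.5, 31.8, 28.3, 35.0 and 18.7 CPM in vehicle sham mice and at 15.9, 12.6, 17.0, 10.7 and 10.6 CPM in vehicle MOV mice. In D + Q sham mice Per3 was 16.1, 22.4, 32.2, 31.6 and 23.7 CPM, and in D + Q MOV mice 14.9, 12.2, 16.1, 13.8 and 15.2 CPM. Separation was complete in vehicle mice, and in D + Q mice 1 sham mouse lay level with the highest MOV mouse. Per3 fell by 1.12 on the log2 scale (SE 0.183, adjusted p = 0.000204) in vehicle mice and by 0.77 (SE 0.170, adjusted p = 0.00182) in D + Q mice.

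Per2 (chr1:91343700-91387069, minus strand) ranged from 7.22 to 13.4 CPM in vehicle sham mice (median 11.2) and from 4.74 to 7.77 CPM in vehicle MOV mice (median 5.75). In D + Q sham mice Per2 ranged from 7.86 to 19.0 CPM (median 11.2), and in D + Q MOV mice from 6.18 to 7.35 CPM (median 6.75). The vehicle groups overlapped and the D + Q groups did not. Per2 fell by 0.80 (SE 0.177, adjusted p = 0.00120) and by 0.94 (SE 0.223, adjusted p = 0.00275) on the log2 scale, in vehicle and in D + Q mice.

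Per1 (chr11:68986035-69002300, plus strand), a period gene that also answers to glucocorticoid hormone and to cAMP, was the least settled member. Vehicle sham mice had 35.0, 57.6, 47.6, 39.5 and 16.2 CPM and vehicle MOV mice 30.7, 20.7, 19.6, 34.6 and 35.5 CPM. D + Q sham mice had 22.4, 21.5, 22.5, 39.7 and 25.6 CPM and D + Q MOV mice 28.2, 33.3, 41.0, 24.2 and 61.7 CPM. All 4 groups of Per1 overlapped. The log2 fold change was -0.46 (SE 0.320, adjusted p = 0.239) in vehicle mice and 0.55 (SE 0.291, adjusted p = 0.131) in D + Q mice, neither past the threshold. Without vehicle sham mouse 5 the vehicle value became -0.66 (adjusted p = 0.0214), and without D + Q sham mouse 4 the D + Q value became 0.75 (adjusted p = 0.0475). With all mice kept, limma-voom with quality weights gave 0.48 in D + Q mice (adjusted p = 0.0484). Whether Per1 was called thus depended on single mice and on the method.

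Cry1 (chr10:84967560-85021252, minus strand) was the flattest member over the groups, averaging 15.1 ± 1.45 CPM (SD, n = 5) in vehicle sham mice, 17.0 ± 1.12 after D + Q and sham, 15.3 ± 1.15 after vehicle and MOV, and 15.0 ± 2.68 after D + Q and MOV. Its log2 fold change with MOV was 0.03 (SE 0.0900, adjusted p = 0.798) in vehicle mice and -0.14 (SE 0.108, adjusted p = 0.254) in D + Q mice. Neither value passed the test.

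The REV-ERB genes fell with small errors. Nr1d1 (chr11:98658752-98666188, minus strand) stood at 199, 153, 182, 197 and 167 CPM in vehicle sham mice and at 114, 107, 97.4, 94.7 and 129 CPM in vehicle MOV mice. In D + Q sham mice Nr1d1 was 173, 178, 182, 159 and 194 CPM, against 81.7, 81.1, 64.7, 98.2 and 73.3 CPM in D + Q MOV mice. Every MOV mouse lay below every sham mouse. Nr1d1 fell by 0.72 on the log2 scale (SE 0.0957, adjusted p = 1.21e-05) in vehicle mice and by 1.11 (SE 0.0926, adjusted p = 4.95e-08) in D + Q mice. Nr1d2 (chr14:4230545-4266624, plus strand), which encodes the second REV-ERB repressor, ranged over all 10 sham mice from 118 to 153 CPM and over all 10 MOV mice from 56.6 to 76.2 CPM. Nr1d2 fell by 1.04 (SE 0.0899, adjusted p = 2.04e-07) in vehicle mice and by 0.97 (SE 0.0738, adjusted p = 4.00e-09) in D + Q mice.

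The output genes had the largest falls. Dbp (chr7:45354512-45359627, plus strand), a transcription factor of the PAR-bZIP family that binds D-boxes, stood at 91.3, 81.7, 90.5, 115 and 47.5 CPM in vehicle sham mice and at 24.3, 14.9, 17.5, 25.7 and 17.9 CPM in vehicle MOV mice. In D + Q sham mice Dbp was 48.9, 78.9, 94.5, 67.1 and 85.3 CPM, against 16.5, 12.9, 19.3, 17.2 and 18.2 CPM in D + Q MOV mice. The lowest sham mouse was still above the highest MOV mouse. Dbp fell by 2.08 on the log2 scale (SE 0.238, adjusted p = 3.12e-05) in vehicle mice and by 2.12 (SE 0.181, adjusted p = 2.63e-06) in D + Q mice. Ciart (chr3:95785815-95789991, minus strand), also called CHRONO, a repressor of the BMAL1 pair, stood at 4.41, 4.37, 5.93, 8.16 and 3.11 CPM in vehicle sham mice and at 1.01, 0.777, 1.497, 1.14 and 0.677 CPM in vehicle MOV mice. D + Q sham mice held 2.15, 2.62, 4.58, 5.09 and 6.20 CPM of Ciart and D + Q MOV mice 0.628, 1.38, 1.60, 0.717 and 2.699 CPM. The vehicle groups were apart, and the D + Q groups overlapped. Ciart fell by 2.33 (SE 0.287, adjusted p = 6.07e-06) in vehicle mice and by 1.53 (SE 0.398, adjusted p = 0.00466) in D + Q mice.

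**Figure D2:**
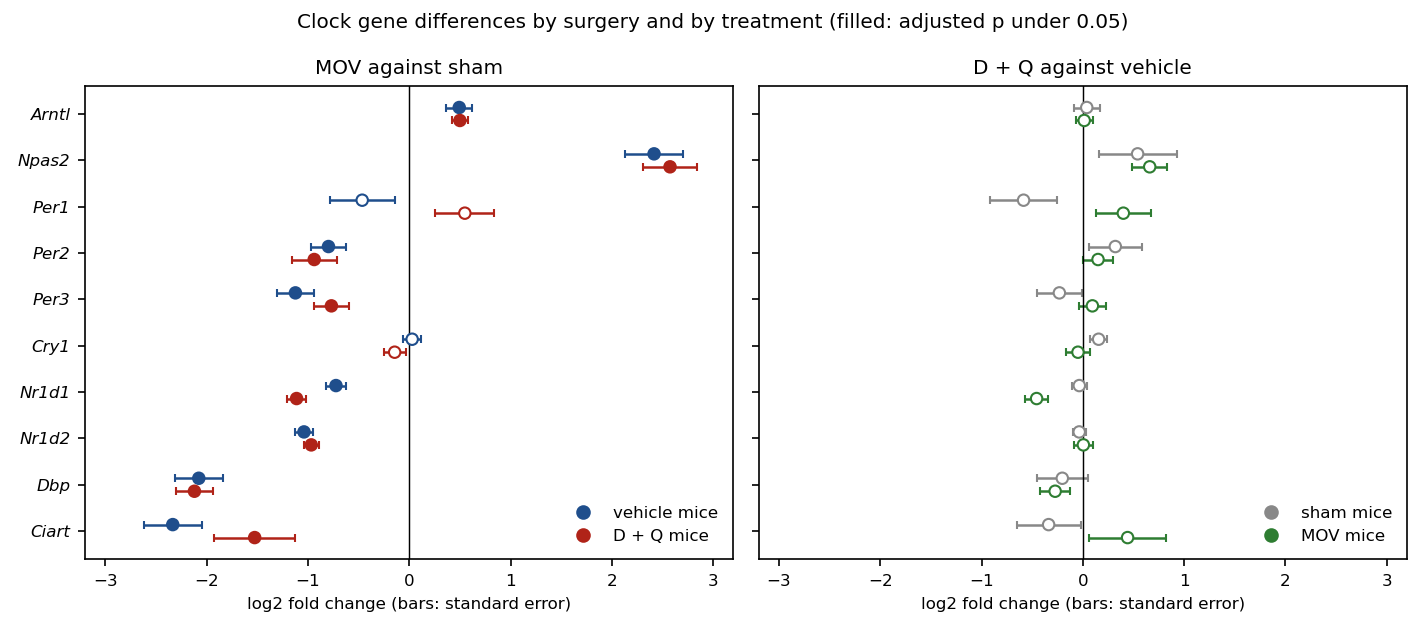
Log2 fold changes of the 10 clock genes (horizontal axis, bars are standard errors) for MOV against sham (left) and D + Q against vehicle (right), with filled points where the adjusted p was under 0.05. With MOV, 8 genes are filled in each treatment, from -2.33 for Ciart to 2.57 for Npas2, and with D + Q none is filled.

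The ratio of a member to Arntl within a mouse does not depend on how libraries are scaled to each other. The per-length ratio of Dbp to Arntl ranged from 3.44 to 13.5 in vehicle sham mice and from 1.02 to 2.00 in vehicle MOV mice, and in D + Q mice from 4.08 to 8.82 in sham and from 0.898 to 1.43 in MOV muscle. For Nr1d1 to Arntl the range was 8.18 to 15.6 in vehicle sham against 4.41 to 6.33 in vehicle MOV mice, and 9.79 to 11.9 against 3.24 to 4.41 in the D + Q groups. Npas2 to Arntl ran the other way, from 0.0319 to 0.0637 in vehicle sham and from 0.143 to 0.257 in vehicle MOV mice. None of the ranges given for these genes overlapped between MOV and sham. The ratio of Ciart to Arntl did overlap in D + Q mice, at 0.167 to 0.524 in sham and 0.0359 to 0.170 in MOV muscle, and in vehicle mice it was 0.210 to 0.889 against 0.0381 to 0.0945.

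Scaling matters here, because MOV and sham libraries had different TMM factors (0.830 to 0.885 in sham, 1.06 to 1.23 in MOV mice). With total counts alone the median of all genes moved to 0.36 in vehicle and 0.39 in D + Q mice, and the calls over all genes went from 4482 higher and 4349 lower to 7683 higher and 1453 lower in vehicle mice, and from 5129 and 4614 to 8392 and 1654 in D + Q mice. The 8 called members kept their directions under that scaling in both treatments, with 3 members called higher and 5 lower in each. Per2 in vehicle mice (-0.42, adjusted p = 0.0616) and Per3 in D + Q mice (-0.40, adjusted p = 0.0666) were then no longer called, while Cry1 in vehicle mice (0.41, adjusted p = 0.00265) and Per1 in D + Q mice (0.92, adjusted p = 0.0240) were. Relative to the shift, the value of Cry1 is close to the median of all genes.

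Bulk muscle also changes its make-up with MOV, and in bulk samples fewer cells of a type and less RNA per cell cannot be told apart. The tissue label was borne out by 8 myofiber markers (Ckm, Acta1, Mylpf, Tnnt3, Atp2a1, Pvalb, Myh4 and Myh1). Their summed level was 158175 to 187362 CPM over sham mice and 87564 to 117708 CPM over MOV mice. Of these, 5 of 8 passed the test lower in vehicle mice and 6 of 8 in D + Q mice (median log2 fold change -0.82 and -0.80). Fibroblast markers rose, 5 of 5 in each treatment (median 3.10 and 3.03), from summed levels of 359 to 949 CPM in sham to 4444 to 11048 CPM in MOV muscle. Macrophage markers rose in 6 of 6 (median 2.78 and 2.93), from 22.05 to 54.5 CPM to 105 to 308 CPM, and markers of dividing cells in 3 of 3 (median 5.02 and 4.43). Slow fiber markers (Myh7, Tnnt1, Tnni1 and Myl2) rose in 2 of 4 in vehicle and 4 of 4 in D + Q mice (median 1.93 and 2.94), from summed levels of 130 to 616 CPM in sham to 338 to 1065 CPM in MOV muscle. Endothelial markers rose in 4 of 6 in each treatment (median 0.67 and 0.54), and adipocyte markers fell in 3 of 3 in vehicle and 1 of 3 in D + Q mice (median -1.51 and -0.85). Beside these marker counts, 60.5% of all genes tested were called in either direction in vehicle mice and 65.3% in D + Q mice. No marker of any list was at 0 throughout a group. The part of cell make-up or fiber type in the clock gene differences was not tested.

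The other 18 clock genes of a list fixed beside the members moved in the same comparison. Of these, 16 had enough counts to test (Rorb and Fbxl21, with at most 14 and 8 counts in any mouse, did not). In vehicle mice 2 rose and 13 fell, with a median log2 fold change of -0.53, while in D + Q mice 2 rose and 12 fell (median -0.53). Over all genes tested, 30.7% were called higher and 29.8% lower in vehicle mice, and 34.4% and 30.9% in D + Q mice. The PAR-bZIP relatives of Dbp fell with it: Hlf by 2.14 and 1.67 on the log2 scale in vehicle and D + Q mice, and Tef by 0.96 in both. Nfil3, which encodes the repressor that competes with DBP for D-boxes, rose by 0.71 and 0.58.

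Among the receptors that compete with REV-ERB for the ROR element, Rora fell by 0.90 and 1.01 in vehicle and D + Q mice. The E-box repressors Bhlhe40 and Bhlhe41 fell by 1.19 and 0.79 and by 0.91 and 1.01. The deubiquitinase gene Usp2 fell by 0.82 in both treatments. Timeless, which also serves DNA replication, rose by 0.69 and 1.30.

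Smaller falls depended on the scaling, and some also on single mice. In vehicle mice Cry2 (-0.30), Csnk1e (-0.32), Btrc (-0.31), Fbxw11 (-0.34) and Clock (-0.22, adjusted p = 0.0323) passed the test lower, and all 5 turned positive with total counts alone. In D + Q mice Cry2 (-0.32), Csnk1e (-0.25) and Btrc (-0.24) passed lower and likewise turned positive, Fbxw11 (-0.39) passed lower and was -0.02 without a call under that scaling, and Clock (-0.08, adjusted p = 0.364) did not pass. The vehicle call of Clock was also lost with a minimum of 50 counts (adjusted p = 0.0817) and without any 1 of 6 mice, vehicle MOV 1, 2 and 5 and vehicle sham 1, 4 and 5 (adjusted p = 0.0558 to 0.124). The D + Q call of Btrc was lost without D + Q MOV mouse 3 (-0.17, adjusted p = 0.0516). The kinase gene Csnk1d (0.03 and -0.03) passed in neither treatment.

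**Figure D3:**
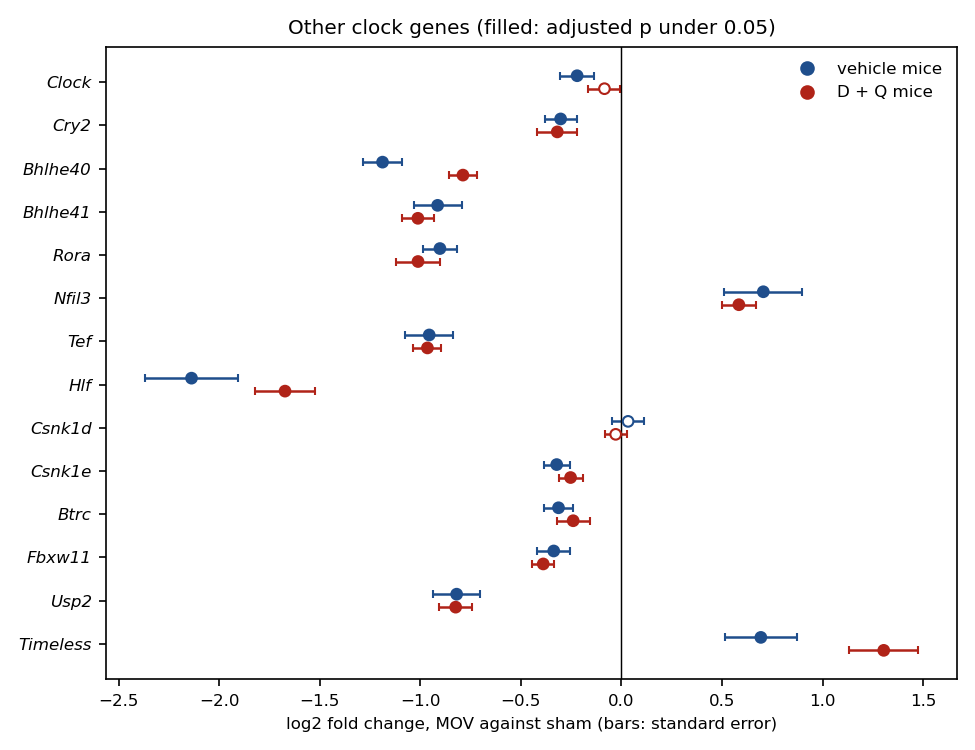
Log2 fold changes of 14 of the 16 other clock genes tested, MOV against sham (horizontal axis, bars are standard errors), in vehicle (blue) and D + Q mice (red), with filled points at an adjusted p under 0.05. Nfil3 and Timeless have filled points above 0 in both treatments, and Hlf lies lowest, at -2.14 and -1.67.

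Muscle genes with known clock control were counted too, as were genes that answer to glucocorticoid hormone. Of 12 clock-linked muscle genes, 1 rose and 6 fell in vehicle mice (median -0.46) and 2 rose and 7 fell in D + Q mice (median -0.69), so 7 and 9 of 12 were called where the background was 60.5% and 65.3% of all genes. By lowest p, Tcap, which encodes the titin cap protein, fell by 0.90 and 0.91 in vehicle and D + Q mice, Nampt, the enzyme of NAD salvage, by 0.70 and 0.67, and Slc2a4, the insulin-responsive glucose transporter, by 0.68 and 0.72. Hk2, which encodes hexokinase 2, fell by 0.68 in vehicle mice, and Tspan4, which encodes a tetraspanin, rose by 1.36 in D + Q mice. Of 7 glucocorticoid-responsive genes, Per1 among them, 1 rose and 4 fell in each treatment, which is 5 of 7 called beside the same backgrounds.

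D + Q against vehicle gave no call among the members in either surgery. In sham muscle 0 of 10 members passed the adjusted threshold (background 0.215% of 13926 genes) and 0 of 10 were at an unadjusted p under 0.05 (background 10.2%). With DESeq2 0 members passed as well, and 1 member had no adjusted p there. In MOV muscle 0 of 10 passed (background 0%, since no gene was called), and 2 of 10, Npas2 and Nr1d1, were at an unadjusted p under 0.05 (background 8.79%). Without vehicle MOV mouse 4 the genes at that unadjusted p went from 1340 to 2634, with the members at 2. DESeq2 called 11 genes in that comparison and 0 members. The study, which ran DESeq2 in other software at the same threshold, reported far more genes between these groups. The reason for that difference was not tested. Every member overlapped between D + Q and vehicle mice in both surgeries, where 2.05% of all genes in sham and 1.44% in MOV muscle did not overlap.

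For Npas2, D + Q MOV mice averaged 9.79 ± 1.76 CPM (SD, n = 5) and vehicle MOV mice 6.14 ± 1.64 CPM, which is 0.66 on the log2 scale (SE 0.172, unadjusted p = 0.00166, adjusted p = 0.523). Nr1d1, the repressor of Npas2, averaged 79.8 ± 12.4 CPM in D + Q MOV and 108 ± 13.8 CPM in vehicle MOV mice, which is -0.46 on the log2 scale (SE 0.113, unadjusted p = 0.00115, adjusted p = 0.523). Neither passed the adjustment over all genes. Over the alternatives and left-out mice the lowest adjusted p was 0.0748 for Npas2 and 0.0938 for Nr1d1. The same pair of MOV groups differed in the share of reads from Rn18s, a ribosomal RNA gene, which was 1.01% to 1.69% in D + Q MOV and 0.697% to 0.959% in vehicle MOV mice, and in summed fibroblast markers, 8069 to 11048 against 4444 to 8964 CPM. The part of either in these values was not tested.

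The remaining members passed neither threshold with D + Q. Arntl differed by 0.04 (SE 0.130) in sham and 0.01 (SE 0.0837) in MOV muscle on the log2 scale, and Nr1d2 by -0.04 (SE 0.0631) and 0.01 (SE 0.0974). Errors were wider for Ciart, at -0.34 (SE 0.315) and 0.44 (SE 0.381), and for Per1, at -0.59 (SE 0.331) and 0.40 (SE 0.274).

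With all 20 mice, neither the D + Q difference common to both surgeries nor its change between surgeries was called for any member. For the common difference 0.0255% of 15700 genes were called, and 2 members were at an unadjusted p under 0.05 (background 13.2%): Npas2, at 0.62 (SE 0.200, unadjusted p = 0.00481, adjusted p = 0.167), and Nr1d1, at -0.23 (SE 0.0835, unadjusted p = 0.0102, adjusted p = 0.211). For the interaction, the D + Q difference in MOV muscle minus that in sham muscle, 0.0127% of genes were called, and 2 members were at an unadjusted p under 0.05 (background 5.71%). These were Nr1d1, at -0.42 (SE 0.140, unadjusted p = 0.00577, adjusted p = 0.718), and Per1, at 0.98 (SE 0.446, unadjusted p = 0.0425, adjusted p = 0.855). The other clock genes and the clock-linked muscle genes also gave 0 calls in each of these D + Q comparisons.

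Mice of one group differed among themselves in clock genes, some more than others. The biological coefficient of variation within groups, as edgeR estimates it, was 37.0% for Ciart, 34.05% for Per1, 28.7% for Npas2, 23.5% for Dbp, 22.4% for Per2 and 20.4% for Per3, against a median of 13.8% over 15700 genes. Among those genes these members ranged from percentile 67.4 (Per3) to 90.4 (Ciart). Arntl (12.1%), Nr1d1 (11.5%), Cry1 (10.8%) and Nr1d2 (10.1%) lay under that median.

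That spread was compared between members, with permutation p not adjusted for the 9 relations. Each mouse's log2 CPM was taken as a deviation from its group mean, and the 9 other members were correlated with Arntl over the 20 mice, with a two-sided permutation test that shuffled mice within their groups. Mice above their group in Arntl were also above it in Npas2 (Pearson's r = 0.78, permutation p = 0.00077, Spearman's rho = 0.73, permutation p = 0.0026). In Per3 they were below it (r = -0.69, permutation p = 0.00231, rho = -0.55, permutation p = 0.0227).

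Weaker negative values were found for Per1 (r = -0.63, permutation p = 0.0132, rho = -0.49, permutation p = 0.0492), Dbp (r = -0.56, permutation p = 0.0449, rho = -0.45, permutation p = 0.0779) and Per2 (r = -0.51, permutation p = 0.0341, rho = -0.42, permutation p = 0.0922). Ciart (r = -0.48, permutation p = 0.0241, rho = -0.50, permutation p = 0.0340) and Nr1d2 (r = -0.43, permutation p = 0.0460, rho = -0.36, permutation p = 0.137) followed. Cry1 (r = 0.33, permutation p = 0.118, rho = 0.29, permutation p = 0.238) and Nr1d1 (r = 0.24, permutation p = 0.342, rho = 0.32, permutation p = 0.215) showed no relation past the threshold.

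When the 2 mice farthest from the Arntl median, vehicle sham mice 5 and 2, were left out, r stayed past p of 0.05 for Npas2 (0.70, permutation p = 0.00618), Per3 (-0.59, permutation p = 0.0231) and Ciart (-0.51, permutation p = 0.0307). For Per1 (-0.32, permutation p = 0.206) and Dbp (-0.40, permutation p = 0.152) r was smaller and no longer past it. For Per2 (-0.51, permutation p = 0.0537) and Nr1d2 (-0.48, permutation p = 0.0745) r was no smaller, and only p, now over 18 mice, passed 0.05. With vehicle sham mouse 5 alone left out, r was smaller for both, at -0.37 for Per2 (permutation p = 0.172) and -0.41 for Nr1d2 (permutation p = 0.106). Leaving out other single mice also lost p of 0.05 for these relations. Without vehicle MOV mouse 1 this held for Per2 (-0.49, permutation p = 0.0558), Nr1d2 (-0.33, permutation p = 0.128) and Dbp (-0.52, permutation p = 0.0887). For Per1 it held without D + Q sham mouse 4 (-0.58, permutation p = 0.0579). In a fit over the whole table with Arntl as a covariate beside group, no gene other than Arntl itself was called (edgeR adjusted p of the members 0.799 to 0.999), and 6 of the 9 members were at an unadjusted p under 0.05, against 4.61% of 15699 genes. Without vehicle sham mouse 5 that count was 2 members, and without vehicle sham mouse 4 it was 3.

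**Figure D4:**
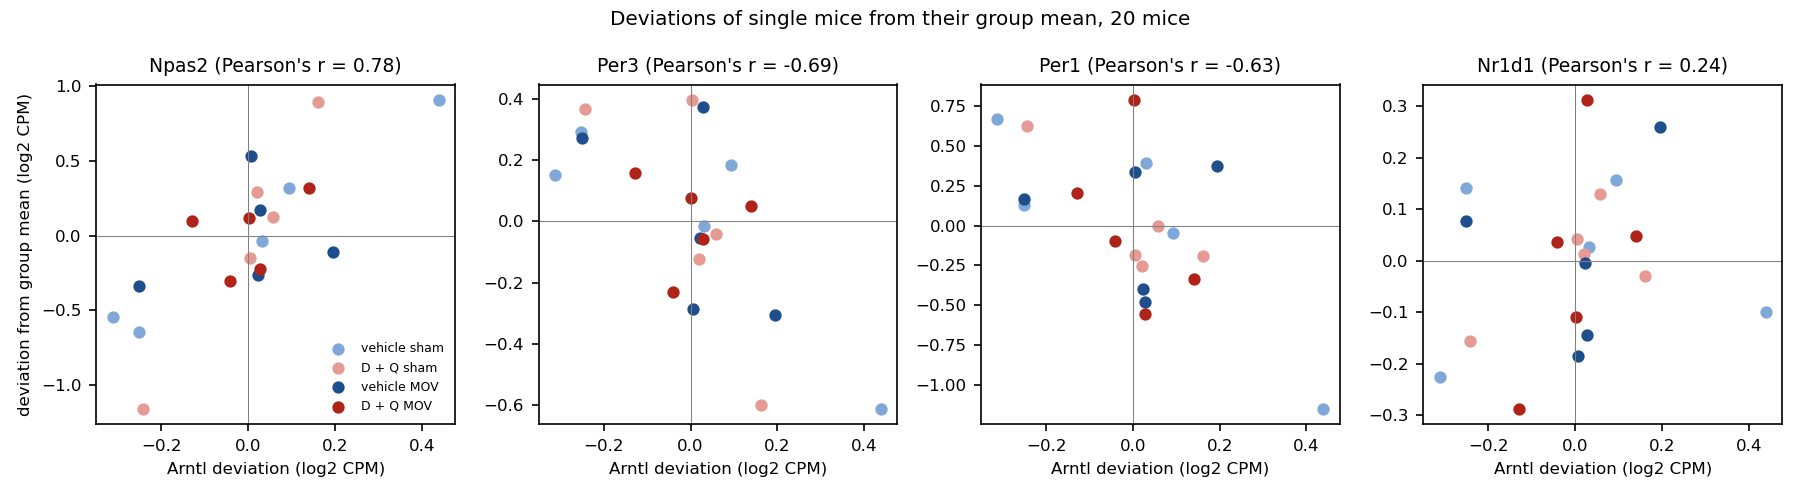
Deviations of Npas2, Per3, Per1 and Nr1d1 (vertical axes) against that of Arntl (horizontal axes), in log2 CPM from the mean of the mouse's own group, with 1 point per mouse colored by group. Pearson's r is 0.78, -0.69, -0.63 and 0.24, and the vehicle sham mouse at the far right lies lowest for Per3 and Per1.

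The farthest mouse, vehicle sham 5, carried the pattern in most members at once. Within its group it had the highest Arntl (32.01 CPM), Npas2 (2.06 CPM) and Cry1 (17.6 CPM), and the lowest Per1 (16.2 CPM), Per2 (7.22 CPM), Per3 (18.7 CPM), Nr1d2 (127 CPM), Dbp (47.5 CPM) and Ciart (3.11 CPM). Its library also had the highest share of Rn18s reads in that group, 1.22% against a group median of 0.717%, and the part of this in its clock levels was not tested. D + Q sham mouse 4 was the reverse in part, with the lowest Arntl (21.0 CPM) and Npas2 (0.631 CPM) and the highest Per1 (39.7 CPM) and Per2 (19.0 CPM) of its group. Without vehicle sham mouse 5 the MOV comparison in vehicle mice called the same 8 members and Per1, and the correlations with Arntl stayed past p of 0.05 for Npas2 (r = 0.71, permutation p = 0.00352) and Per3 (r = -0.54, permutation p = 0.0251) but not for the other members.

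Over 13202 other genes with a mean of at least 1 CPM, Npas2 ranked 2 by its r with Arntl. Among the non-member genes most like Arntl over these 20 mice were Slc4a2 (r = 0.80), Trp53bp1 (0.78), Tbpl1 (0.78) and Senp5 (0.76), and among those least like it were Dna2 (-0.79), Rpusd4 (-0.78), Tspan4 (-0.77), Uckl1os (-0.75) and Gm34256 (-0.73). Those most like Dbp were Spg21 (0.89), Pisd-ps1 (0.87), Cdh11 (0.87), Sall2 (0.83) and Fam149a (0.83), and those least like it 2310057M21Rik (-0.80), Zfp770 (-0.80), Pdpk1 (-0.79), Gsto1 (-0.75) and Riok2 (-0.74). These are the extremes of a long list, given as a description, and the values share libraries and depth.

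In GENCODE, 9 of the 10 members overlap another gene on the opposite strand, Cry1 being the exception, and the strand setting of the counting is not given in the sources used here. Most partners are gene models known by Gm numbers, whose values are not given here, and Npas2, Per1 and Nr1d1 also overlap such a model on their own strand. The partners looked at were Thra for Nr1d1, Sphk2 for Dbp, Uts2 for Per3 and C920021L13Rik for Ciart, and reads from such partners could be shared. Estimated counts of Nr1d1 and Dbp were not whole, such as 2658.46 in vehicle sham mouse 2 and 808.302 in vehicle sham mouse 5. The highest counts of Thra (1914.66) and Sphk2 (500.482) were not whole either. A member and its partner may thus not be independent measures, and the part of shared reads was not tested. Thra, at -0.28 in vehicle and -0.31 in D + Q mice, and Sphk2, at -0.03 and -0.06, moved less with MOV than Nr1d1 and Dbp in log2 terms, and both turned positive with total counts alone. Uts2 did not reach the count minimum in the MOV comparisons, and C920021L13Rik did so only in D + Q mice (0.68, adjusted p = 0.166).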

How the data were processed

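RNA of 20 plantaris muscles was analysed. The authors aligned reads with STAR 2.7.8a to GRCm39 and deposited estimated counts per gene (Partek expectation-maximization), not normalized, for rows of at least 10 counts over all mice. Of the values, 29.8% were not whole, and they were rounded. Totals were 17887532 to 26234518 per mouse, which limits precision for low genes. A minimum of 10 counts in 5 or more mice of a comparison was set, and genes were tested with edgeR 4.0.16 (R 4.3.3), quasi-likelihood with TMM, on the mice compared, adjusted by Benjamini-Hochberg and called under 0.05. CPM used TMM over all 20 mice, and log2 CPM a prior count of 2. Permutation tests drew 100000 resamples. Alternatives were DESeq2 1.42.0, RLE factors, total counts, other count minimums, one fit over all 20 mice, limma-voom with quality weights (limma 3.58.1), a block for the replicate number, and leaving out each mouse. Scripts were tested on simulated data. The members, lists, tests and rule for named genes (all members, listed genes by their calls, and the 5 genes most and least like Arntl and Dbp) were chosen with earlier results of these data known. Gene positions are from GENCODE vM39 and promoters from RefSeq. No column was left unused. Results for some genes of the lists are not reported here.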

Additional observations from a re-analysis of the deposited data

Results flagged for a closer look

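For 40 groups of 5 mice (10 members in 4 groups), the gap of an extreme mouse to the next was divided by the group's range, in log2 CPM. In 3 groups this share exceeded Dixon's critical value of 0.71, and chance gives about 1 in 20. Per1 in D + Q sham muscle reached 39.7 CPM in 1 mouse, with the next at 25.6. Cry1 reached 17.6 CPM in 1 vehicle sham mouse, with the next at 14.9, and 17.4 CPM in 1 vehicle MOV mouse, with the next at 14.9.

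The serum and glucocorticoid-regulated kinase gene Sgk1, counted among the glucocorticoid-responsive genes, differed between surgeries in its D + Q difference. It averaged 148 ± 28.2 CPM (SD, n = 5) in vehicle sham, 71.7 ± 5.58 in D + Q sham, 62.4 ± 11.01 in vehicle MOV and 72.0 ± 8.14 in D + Q MOV muscle. The interaction was 1.25 on the log2 scale (SE 0.179, edgeR adjusted p = 0.00676), with -1.06 (SE 0.127, adjusted p = 0.0177) in sham and 0.19 (SE 0.113, adjusted p = 0.629) in MOV muscle. The sham call was lost when any of 5 single mice was left out (D + Q sham 3 and 5, vehicle sham 1, 2 and 3), with adjusted p of 0.0513 to 0.0776, and the interaction call with the replicate block (adjusted p = 0.0716).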

How the results depend on the processing

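The counts of members called stayed within 1.5 times of those reported under every alternative and left-out mouse, at 8 or 9 with MOV (7 in D + Q mice at a minimum of 50 counts, where Ciart was not tested) and 0 with D + Q or Arntl. At that minimum 1 member was also untested for D + Q in sham and 1 for D + Q in MOV muscle. By the replicate numbers of the sample titles, deviations of same-numbered mice correlated at -0.257 to 0.279. Of 40 mice, 7 were best matched by their own number among 5 candidates, where a random pick gives 1 in 5. The column names number sham and MOV mice with different offsets from the titles, so a pairing of sham with MOV mice by column name was not tested. With the replicate block the members called were 8 and 8 with MOV and 0 elsewhere, the interaction among glucocorticoid-responsive genes went from 1 call to 0, and calls over all genes went from 30 to 19 (D + Q in sham), 0 to 2 (D + Q in MOV), 2 to 1 (interaction) and 4 to 12 (D + Q over both surgeries). Other settings moved those counts by over 1.5 times. D + Q in sham gave 133 calls with DESeq2, 67 with no filter, 49 with total counts and 19 with all 20 mice, D + Q in MOV gave 11 with DESeq2, and D + Q over both surgeries gave 298 with DESeq2, 123 with limma-voom, 30 with no filter, 17 with RLE factors and 2 with total counts. Left-out mice moved them as far: D + Q in sham ranged from 2 to 74 calls (74 without vehicle sham 5, and 2 or 3 without D + Q sham 3 or 5 or vehicle sham 1, 2 or 3, 12 without D + Q sham 2 and 15 without vehicle sham 4), D + Q in MOV from 0 to 2 (2 without vehicle MOV 4) and D + Q over both surgeries from 3 to 416, with 416 without vehicle MOV 4, 52 without D + Q sham 1, 30 without vehicle sham 4, 20 without D + Q MOV 2, 15 without vehicle MOV 3 and 8 without D + Q MOV 4. The association fit gave 1 call with DESeq2 and 4 with Dbp as the covariate, 0 of them members.

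Log2 fold changes that changed sign were mostly close to 0. With total counts, where all genes shift upward, vehicle MOV against sham became 0.16 for Clock, 0.074 for Cry2, 0.055 for Csnk1e, 0.063 for Btrc, 0.036 for Fbxw11, 0.10 for Thra and 0.34 for Sphk2, and in D + Q mice 0.22 for Cry1, 0.28 for Clock, 0.045 for Cry2, 0.34 for Csnk1d, 0.11 for Csnk1e, 0.12 for Btrc, 0.051 for Thra and 0.31 for Sphk2. Total counts also gave 0.0016 for Nr1d1 and 0.0020 for Nr1d2 (D + Q in sham), 0.00072 for Cry1 (D + Q in MOV), and 0.032 for both Nr1d2 and Ciart (D + Q over both). A minimum of 50 counts gave 0.013 for Sphk2 in vehicle and 0.010 for Csnk1d in D + Q mice, limma-voom gave -0.0058 for Csnk1d in vehicle mice, -0.033 for Nr1d2 (D + Q in MOV), and 0.013 for Arntl and -0.0035 for Nr1d2 (interaction), DESeq2 0.032 for Ciart and no filter 0.00011 for Nr1d2 (D + Q over both). The cause was not tested.

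Leaving out single mice gave ranges that crossed 0 for MOV in vehicle mice (-0.0014 to 0.088 for Cry1, -0.0060 to 0.086 for Csnk1d and -0.089 to 0.013 for Sphk2), for D + Q in sham (-0.029 to 0.16 for Arntl, -0.082 to 0.0049 for Nr1d1 and -0.060 to 0.0075 for Nr1d2) and in MOV muscle (-0.047 to 0.070 for Arntl, -0.13 to 0.023 for Cry1 and -0.047 to 0.061 for Nr1d2), for D + Q over both surgeries (-0.22 to 0.035 for Per1, -0.12 to 0.0063 for Per3, -0.031 to 0.019 for Nr1d2 and -0.18 to 0.14 for Ciart) and for the interaction (-0.15 to 0.046 for Arntl, -0.18 to 0.42 for Npas2, -0.014 to 0.093 for Nr1d2 and -0.21 to 0.075 for Dbp). Called genes in D + Q sham muscle ranged from 0 to 2 among clock-linked genes, 0 to 1 among other clock genes and 0 to 1 among glucocorticoid-responsive genes. Correlations with Arntl, left-out mice having been added after the data were seen, ranged from -0.73 to -0.39 for Per1, -0.62 to -0.37 for Per2, 0.11 to 0.50 for Cry1, -0.51 to -0.33 for Nr1d2, -0.63 to -0.28 for Dbp and -0.58 to -0.39 for Ciart. With total counts r was -0.42 for Dbp and -0.35 for Ciart, and without the 2 far mice -0.32 for Per1, -0.51 for Per2, -0.48 for Nr1d2 and -0.40 for Dbp, none past p of 0.05. Slopes on Dbp and on Arntl measure different things, so only their calls are compared.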
